A study of Mus musculus with 17 samples.

Results

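Homeostatic microglia markers are genes by which the resident macrophages of the brain are recognised. The 9 followed here were Cx3cr1, P2ry12, Csf1r, Tmem119, Siglech, Fcrls, Ptprc, Aif1 and Mpeg1. They were taken as a fixed set of names, matched by Ensembl identifier to mouse symbols. The set was chosen with earlier results of these data known. All 9 were among the 52373 gene identifiers that both batches of the deposited files share. Ribosome-bound RNA was sequenced from the micro-dissected corpus callosum, the large white matter tract between the hemispheres. All mice were males of genotype GFAP-Cre+/- Rpl22HA/wt, in which Cre under the GFAP promoter switches on an HA tag on the ribosomal protein Rpl22, and tagged ribosomes were pulled down with their RNA (the RiboTag method). The cuprizone groups were fed 0.2% cuprizone, which chelates copper and is toxic to oligodendrocytes, for 5 weeks from an age of 8 to 9 weeks, and the mock groups were of the same age and ate normal chow.

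The groups were cuprizone and mock at 5 weeks (acute demyelination, batch 1), cuprizone and mock at 5.5 weeks (early remyelination, batch 2), and cuprizone and mock at 7 weeks (late remyelination, batch 2). From week 5 on, the cuprizone mice ate normal chow too. Each of the 6 groups has 3 libraries, except 2 in the 5-week mock group. The labels name astrocytes as the cell type, so the 9 genes were read here as RNA of cells other than the labelled one. GFAP-Cre is meant to act in astrocytes, and without a total RNA library to set beside the precipitate, how much of this RNA was bound to tagged ribosomes cannot be told. In such bulk samples, fewer microglia and less RNA per microglial cell cannot be told apart.

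Microglia arise from yolk sac precursors and renew themselves within the brain. They depend on the receptor CSF1R, whose ligands are CSF1 and IL-34, and they answer neurons through CX3CR1, the receptor of the neuronal chemokine CX3CL1. P2RY12, a receptor for ADP, steers their processes towards injury, and its transcript is known to fall when microglia leave the resting state. In cuprizone demyelination microglia gather in the corpus callosum and take up myelin debris. A set of genes named disease-associated, among them Spp1, Lgals3, Clec7a and Itgax, is then known to be switched on.

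Of the 17 libraries, 8 hold values that repeat another library of their group. Among genes with 500 or more counts, 46.6% to 96.2% of the values in these 8 equalled the other library plus an integer from 1 to 10. For the 9 markers, 64 of 72 such values lay 1 to 10 counts above the repeated library and the other 8 lay further above, by up to 41 counts. The repeated library was therefore used alone as 1 sample, which left 9 distinct libraries. They were 3 cuprizone and 2 mock libraries at 5.5 weeks, and 1 cuprizone and 1 mock library at both 5 and 7 weeks. Total counts ran from 20797535 to 30400048. The 7-week cuprizone library stood apart from the others, with 34576 genes detected against 19496 to 23980. In the other 8 libraries the 10 astrocyte markers summed to 9131 to 19032 CPM (read counts relative to library size, with TMM scaling within each week) and the 8 oligodendrocyte markers to 10356 to 22732 CPM. The 9 microglial markers summed to 15.1 to 35.7 CPM in those 8 libraries, and to 475 CPM in the 7-week cuprizone library.

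The promoters of P2ry12, Fcrls and Mpeg1 are shown because the 3 genes went different ways at 5 weeks: P2ry12 was lower after cuprizone, Fcrls was close to mock and Mpeg1 was several-fold higher. Each runs from 250 bases before to 50 after the annotated start in RefSeq on GRCm38.p6, 5′ to 3′ on the gene's strand: chr3:59262936-59263235 (minus strand) for P2ry12, chr3:87263475-87263774 (minus strand) for Fcrls and chr19:12460520-12460819 (plus strand) for Mpeg1. Capitals mark GGAAGT or its reverse complement ACTTCC, a form of the site bound by ETS factors such as PU.1 (Spi1), the myeloid master regulator.
P2ry12: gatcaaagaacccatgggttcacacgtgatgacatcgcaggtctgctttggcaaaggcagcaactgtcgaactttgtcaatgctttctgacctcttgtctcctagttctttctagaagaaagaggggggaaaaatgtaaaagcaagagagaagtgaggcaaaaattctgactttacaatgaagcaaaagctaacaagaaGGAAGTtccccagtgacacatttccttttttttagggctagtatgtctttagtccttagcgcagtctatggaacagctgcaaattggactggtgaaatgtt
Fcrls: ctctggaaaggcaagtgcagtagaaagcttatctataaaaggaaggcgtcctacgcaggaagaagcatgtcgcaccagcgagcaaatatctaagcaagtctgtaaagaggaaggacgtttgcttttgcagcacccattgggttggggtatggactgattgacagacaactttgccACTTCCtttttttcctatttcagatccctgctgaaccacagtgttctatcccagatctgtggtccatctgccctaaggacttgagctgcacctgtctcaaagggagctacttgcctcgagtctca
Mpeg1: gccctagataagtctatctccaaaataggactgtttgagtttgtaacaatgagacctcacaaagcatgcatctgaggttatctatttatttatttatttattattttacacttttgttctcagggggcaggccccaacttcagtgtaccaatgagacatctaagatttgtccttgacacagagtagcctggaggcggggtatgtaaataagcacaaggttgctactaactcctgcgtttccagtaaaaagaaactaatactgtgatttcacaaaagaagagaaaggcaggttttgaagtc
Both strands were searched for these letters only. Other forms of the ETS site were not searched, and overlaps with other motifs were not considered. Read along the gene's own strand, as printed, the window of P2ry12 held GGAAGT and that of Fcrls held ACTTCC, and these letters were not in the window of Mpeg1. Among the 7 markers with a window in the table (8 windows in all), P2ry12, Siglech, Fcrls and Ptprc held it, in 5 of 8 windows, against 23.8% of 32851 windows over all genes. A match is a description of the letters, not a bound site.

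Compared per kilobase of exon, the markers differed widely in level in the mock libraries. Aif1 (ENSMUSG00000024397, chromosome 17), which encodes the actin-binding protein IBA1, stood highest with a median of 1.86 CPM per kb over the 4 mock libraries. P2ry12 (ENSMUSG00000036353, chromosome 3) followed with 1.26. The next 4 lay close together: Tmem119 (ENSMUSG00000054675, chromosome 5) at 0.729, Cx3cr1 (ENSMUSG00000052336, chromosome 9) at 0.686, Fcrls (ENSMUSG00000015852, chromosome 3) at 0.678 and Csf1r (ENSMUSG00000024621, chromosome 18) at 0.656 CPM per kb. Mpeg1 (ENSMUSG00000046805, chromosome 19) had 0.341 and Siglech (ENSMUSG00000051504, chromosome 7) 0.234 CPM per kb. Ptprc (ENSMUSG00000026395, chromosome 1) was lowest at 0.0147 CPM per kb, on an exon union of 18.3 kb that includes all annotated transcripts. Ranges of neighbours in this order overlapped, except between Csf1r (0.582 to 1.24) and Mpeg1 (0.124 to 0.399), and between Siglech (0.130 to 0.340) and Ptprc (0 to 0.0221).

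**Figure D1:**
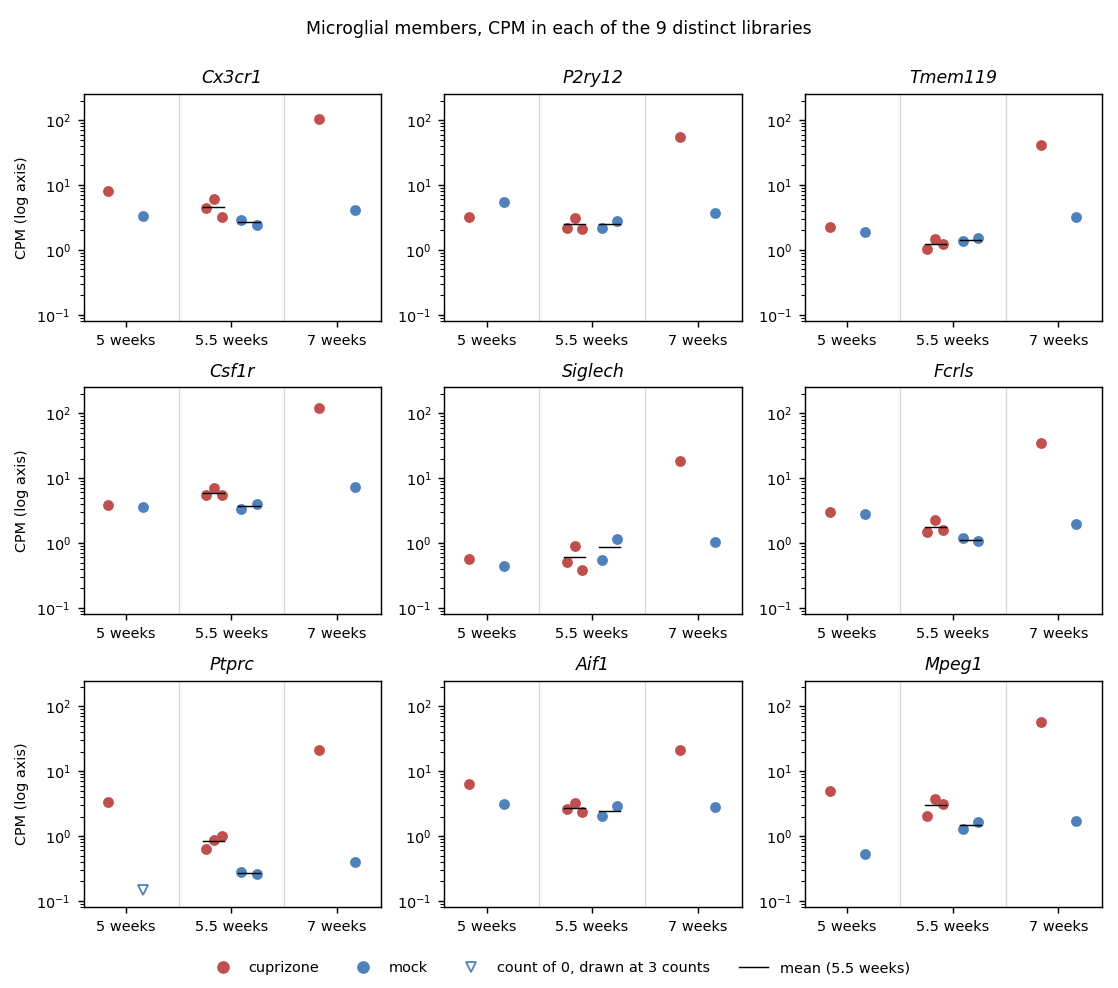
CPM of each of the 9 markers (log axis) in the 9 distinct libraries, cuprizone in red left of mock in blue, at 5, 5.5 and 7 weeks; black lines are means at 5.5 weeks and the open triangle is a count of 0 drawn at 3 counts. In every panel the 7-week cuprizone library is the highest point, for example 104 CPM for Cx3cr1, while the 5.5-week groups lie within a few CPM of each other.

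The 5-week comparison asks how the tissue differs from mock at the height of demyelination. The markers split: Cx3cr1, Ptprc, Aif1 and Mpeg1 were at least 2-fold higher in the cuprizone library, P2ry12 was lower, and Tmem119, Csf1r, Siglech and Fcrls had intervals that include no difference. Summed, the 9 had 35.7 CPM in cuprizone and 21.1 CPM in mock, a ratio of 1.69 (exact Clopper-Pearson 95% interval 1.50 to 1.91). There is 1 distinct library per group, so these 2 libraries alone give no test, and the intervals cover counting error only. Of 14947 genes with at least 1 CPM in either library, 13.1% had a ratio of at least 2 and 15.3% were lower by at least 2-fold, and the median log2 ratio over all of them was 0.0010, against 0.63 for the 8 markers that reached 1 CPM. Siglech did not reach it.

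Among the receptors, Cx3cr1 had 176 counts in cuprizone and 67 in mock (8.19 against 3.27 CPM), 2.504-fold higher (interval 1.88 to 3.37). P2ry12 went the other way, with 70 counts in cuprizone against 113 in mock (3.26 against 5.52 CPM), a ratio of 0.591 (interval 0.432 to 0.803). That mock value was the highest of its kind: the batch 2 mock libraries had 2.18, 2.75 and 3.68 CPM, each scaled within its own week. The 5-week cuprizone value of P2ry12 lay within the range of those batch 2 mock libraries. Csf1r had 82 counts in cuprizone and 73 in mock, a ratio of 1.07 (interval 0.772 to 1.49). These 3 receptors, which microglia carry together, thus gave a higher, a lower and an unseparated value in the same pair of libraries.

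The surface proteins stayed near mock. Tmem119, a transmembrane protein used to tell microglia from blood-derived macrophages, had 48 counts in cuprizone and 38 in mock, a ratio of 1.20 (interval 0.770 to 1.89). Fcrls, an Fc receptor-like protein, had 65 counts in cuprizone and 57 in mock, a ratio of 1.09 (interval 0.750 to 1.58). Siglech, a sialic acid-binding lectin that signals through the adaptor Tyrobp, had 12 counts in cuprizone and 9 in mock, too few to separate the pair (ratio 1.27, interval 0.492 to 3.42).

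Among the genes shared by macrophages or leukocytes, Mpeg1 and Ptprc had the highest ratios of the 9, and Aif1 lay below Cx3cr1. Mpeg1, the pore-forming protein perforin-2, had 105 counts in cuprizone and 11 in mock (4.89 against 0.537 CPM), 9.10-fold higher (interval 4.88 to 18.8). Its mock value was low beside the 1.28, 1.67 and 1.73 CPM of the batch 2 mock libraries. Ptprc, the leukocyte phosphatase CD45, had 72 counts in cuprizone and 0 in mock, at least 22.9-fold higher against a floor of 3 counts in the mock library. That 0 is uncertain, because the near-repeat mock replicate 1 lists 20 counts. Aif1 had 137 counts in cuprizone and 64 in mock (6.38 against 3.13 CPM), 2.04-fold higher (interval 1.51 to 2.79).

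A fit of all 9 distinct libraries assumes that the lone libraries vary like those at 5.5 weeks. It called the same 4 markers higher at 5 weeks, where it called 14.6% of 20292 genes higher: Cx3cr1 (edgeR adjusted p = 0.00858), Ptprc (edgeR adjusted p = 2.62e-06), Aif1 (edgeR adjusted p = 0.0415) and Mpeg1 (edgeR adjusted p = 5.88e-05). P2ry12 did not pass at a log2 fold change of −0.82 (edgeR adjusted p = 0.0652). Set against the summed astrocyte markers, the 5-week sum of the 9 turned to a log2 ratio of −0.30, and against the astrocyte markers other than Gfap it was 0.58. Gfap alone, the astrocyte filament gene, was 10.8-fold higher in that cuprizone library.

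The 5.5-week comparison is the one with replicates and asks about the start of remyelination. None of the 9 markers passed edgeR's quasi-likelihood test after adjustment over 16086 genes, of which 1.08% rose and 0.392% fell. DESeq2 and limma-voom also called 0. Cx3cr1, Csf1r, Ptprc and Mpeg1 had an unadjusted p under 0.05, as did 10.9% of all genes. For these 4 and Fcrls every cuprizone library lay above both mock libraries, as for 13.2% of all genes. The median log2 fold change of the 9 was 0.64, against 0.0021 over all genes. Their summed level was 20.3, 28.7 and 20.4 CPM in cuprizone and 15.1 and 17.7 CPM in mock. In 4 of the 9 the groups overlapped.

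Ptprc had the largest difference, with 0.642, 0.858 and 0.998 CPM in the cuprizone libraries against 0.277 and 0.260 CPM in mock. The estimated log2 difference was 1.61 with a standard error of 0.42 (edgeR adjusted p = 0.112). Mpeg1 had 2.06, 3.79 and 3.07 CPM in cuprizone against 1.28 and 1.67 CPM in mock, a difference of 1.00 ± 0.30 in log2 units (estimate ± SE; edgeR adjusted p = 0.175). The groups did not overlap for either gene, and the lowest cuprizone value of Mpeg1 came close to the higher mock value. Without the filter on low counts both were among the 543 genes called. Of the other alternatives, only the 9-library fit called Ptprc, and only the 17 libraries as deposited called Mpeg1.

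Csf1r had 5.47, 7.09 and 5.41 CPM in cuprizone and 3.36 and 4.01 CPM in mock, a difference of 0.70 ± 0.21 in log2 units (edgeR adjusted p = 0.169). Cx3cr1 had 4.39, 6.004 and 3.26 CPM in cuprizone and 2.91 and 2.41 CPM in mock, a difference of 0.76 ± 0.27 in log2 units (edgeR adjusted p = 0.281). Cuprizone replicate 2 was the highest library for both receptors. Fcrls averaged 1.77 ± 0.426 CPM in cuprizone and 1.13 ± 0.0713 CPM in mock (SD, n = 3 and 2; edgeR adjusted p = 0.462).

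P2ry12 showed no difference that the test could see: 2.20, 3.12 and 2.11 CPM in cuprizone and 2.18 and 2.75 CPM in mock, a difference of −0.00 ± 0.25 in log2 units (edgeR adjusted p = 0.999). Its groups overlapped, and its sign turned when single libraries were left out. Tmem119 averaged 1.24 ± 0.239 CPM in cuprizone and 1.44 ± 0.121 CPM in mock (SD; edgeR adjusted p = 0.836). Aif1 averaged 2.72 ± 0.443 CPM in cuprizone and 2.47 ± 0.603 CPM in mock (edgeR adjusted p = 0.892). Siglech had 0.507, 0.903 and 0.384 CPM in cuprizone and 0.554 and 1.15 CPM in mock (edgeR adjusted p = 0.732), the widest spread between mock libraries among the 9 relative to its level.

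The 7-week comparison asks about late remyelination. All 9 markers were higher in the cuprizone library, by 7.70-fold for Aif1 up to 52.4-fold for Ptprc. Summed, they had 475 CPM in cuprizone and 26.1 CPM in mock, a ratio of 18.2 (exact Clopper-Pearson interval 16.9 to 19.7, counting error only). Of 16410 genes with at least 1 CPM in either library, 21.6% had a ratio of at least 2, 8.77% of at least 8, and 3.22% were lower by at least 2-fold. Every marker but Aif1 was past 8-fold. The median log2 ratio was 4.07 for the 9 and 0.052 over all genes. Everything said of 7 weeks rests on 1 cuprizone library, the one that stands apart in genes detected.

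Among the receptors, Cx3cr1 had 2871 counts in cuprizone and 110 in mock (104 against 4.05 CPM), 25.8-fold higher (interval 21.3 to 31.5). Csf1r had 3338 counts in cuprizone and 195 in mock (121 against 7.18 CPM), 16.9-fold higher (interval 14.6 to 19.6). P2ry12 had 1522 counts in cuprizone and 100 in mock (55.4 against 3.68 CPM), 15.0-fold higher (interval 12.3 to 18.6). P2ry12, the marker that was lower at 5 weeks, was here well above mock with the other receptors.

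The surface proteins lay close together. Siglech had 513 counts in cuprizone and 28 in mock, 18.1-fold higher (interval 12.4 to 27.5). Fcrls had 944 counts in cuprizone and 54 in mock, 17.3-fold higher (interval 13.1 to 23.2). Tmem119 had 1141 counts in cuprizone and 88 in mock, 12.8-fold higher (interval 10.3 to 16.1). These 3 intervals overlap one another.

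The ends of the range were held by the shared leukocyte and macrophage genes. Ptprc had 583 counts in cuprizone and 11 in mock, 52.4-fold higher (interval 29.1 to 106). Mpeg1 had 1561 counts in cuprizone and 47 in mock, 32.8-fold higher (interval 24.6 to 44.9). Aif1 had 592 counts in cuprizone and 76 in mock, 7.70-fold higher (interval 6.06 to 9.91), and its interval lay below that of every other marker.

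**Figure D2:**
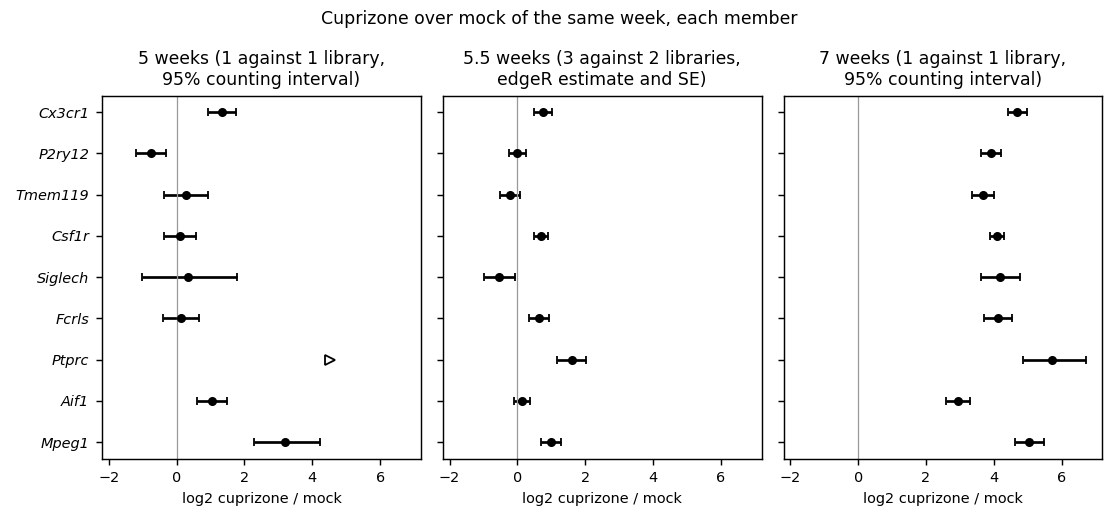
Log2 ratio of cuprizone over mock for each marker at 5, 5.5 and 7 weeks; bars are exact 95% counting intervals at 5 and 7 weeks and the edgeR standard error at 5.5 weeks, and the open triangle is a lower bound. Ratios at 7 weeks run from 2.94 for Aif1 to 5.71 for Ptprc, whereas at 5 weeks P2ry12 lies below 0 at −0.76 and Mpeg1 above at 3.19.

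The treatment by week term in the 9-library fit asked whether the cuprizone effect differed between weeks. The effect at 7 weeks exceeded that at 5.5 weeks for all 9 markers, where 10.3% of genes did so and 6.92% went the other way. The difference ran from 2.79 on the log2 scale for Aif1 (edgeR adjusted p = 0.000171) to 4.69 for Siglech (edgeR adjusted p = 7.43e-05). Between 7 and 5 weeks 8 of 9 were called larger at 7 weeks, as were 18.3% of genes, from 1.91 for Mpeg1 (edgeR adjusted p = 0.0407) to 4.72 for P2ry12 (edgeR adjusted p = 6.05e-07). Ptprc, at 0 in the 5-week mock library, was not called (edgeR adjusted p = 0.239). Without mock replicate 1 or mock replicate 3 at 5.5 weeks Mpeg1 lost this call (edgeR adjusted p = 0.0535 and 0.0536).

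Between 5 and 5.5 weeks only Mpeg1 and Ptprc were called, both with a larger cuprizone effect at 5 weeks, as were 8.91% of genes. For Mpeg1 the log2 difference was 2.11 (edgeR adjusted p = 0.0104), and it lost its call without mock replicate 3 (edgeR adjusted p = 0.0524). For Ptprc the edgeR adjusted p was 0.00103, and it was 0.0869 with all 17 libraries as deposited. The weeks are not alike in other ways: week 5 is also batch 1, so that week and batch cannot be told apart.

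The make-up of the marker signal within each library does not depend on how libraries are scaled to one another. P2ry12 gave 9.13% to 11.6% of the counts of the 9 markers in the 5 cuprizone libraries, against 14.1% to 26.2% in the 4 mock libraries, with no overlap at any week. Relative to the summed markers, 9.96% of all genes likewise had every cuprizone library below every mock library. Mpeg1 gave 10.1% to 15.0% in cuprizone against 2.55% to 9.41% in mock. Ptprc gave 2.99% to 9.39% in cuprizone against 0 to 1.83% in mock. The 26.2% of P2ry12, the 2.55% of Mpeg1 and the 0 of Ptprc were all in the 5-week mock library. Only 0.187% of genes had all cuprizone libraries above all mock libraries on this measure, which a gene of constant CPM cannot meet when the markers' sum is 18.2-fold higher in 1 library. The measure was chosen after the values had been seen, and it is given without a test.

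The shares of the other 6 markers overlapped between groups. Cx3cr1 gave 16.0% to 22.9% in cuprizone and 13.6% to 19.2% in mock. Csf1r gave 10.7% to 26.9% in cuprizone and 16.9% to 27.5% in mock. Tmem119 gave 4.98% to 8.73% in cuprizone and 8.58% to 12.4% in mock, nearly apart. Aif1 gave 4.53% to 17.9% in cuprizone and 10.7% to 16.3% in mock, and its lowest share was in the 7-week cuprizone library.

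Set as a ratio of counts within a library, Cx3cr1 to P2ry12 was 2.51 in cuprizone and 0.593 in mock at 5 weeks. At 5.5 weeks it was 2.00, 1.93 and 1.55 in cuprizone against 1.33 and 0.878 in mock. At 7 weeks it was 1.89 in cuprizone and 1.10 in mock. All 5 cuprizone libraries lay above all 4 mock libraries. At 5.5 weeks, though, the counting interval of cuprizone replicate 3 (1.09 to 2.21) overlapped that of mock replicate 1 (0.950 to 1.88). Ratios of Mpeg1, Fcrls and Ptprc to P2ry12 were also apart, while those of Csf1r, Tmem119, Siglech and Aif1 overlapped between the groups. Csf1r to P2ry12, for example, was 1.17 in 5-week cuprizone and 1.95 in 7-week mock. All these ratios reuse the P2ry12 counts of the shares above, and ratios to other markers were not computed. The share of Fcrls itself overlapped between the groups, at 7.14% to 8.47% in cuprizone and 6.07% to 13.2% in mock. The separation of its ratio therefore rests on P2ry12 as the denominator. The share of all genes whose ratio to P2ry12 would separate the groups was not computed. How unusual these separations are therefore cannot be told.

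**Figure D3:**
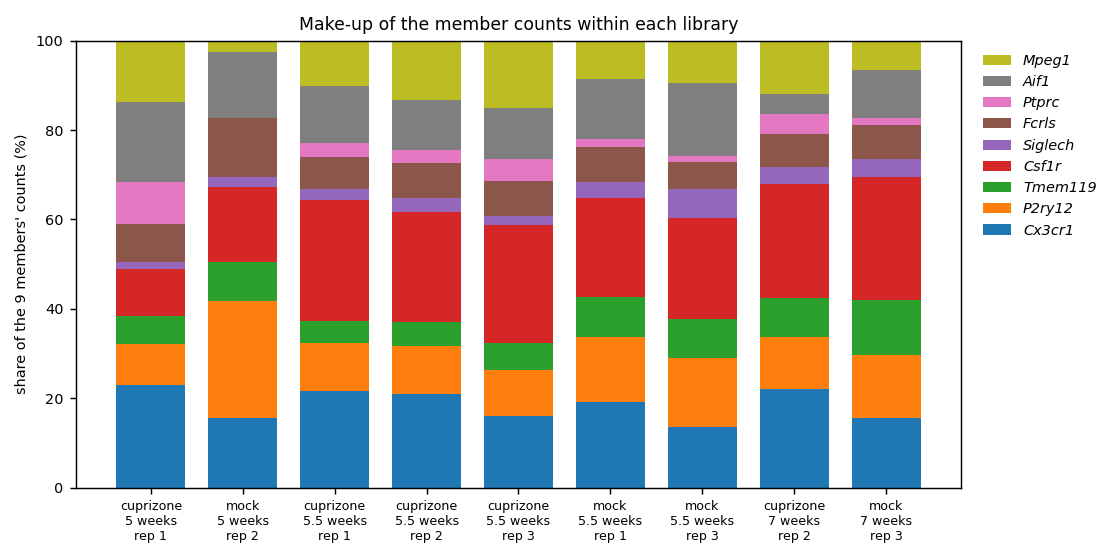
Share of the 9 markers' summed counts (%) given by each marker in each of the 9 distinct libraries, cuprizone left of mock within a week. P2ry12 takes 9.13% to 11.6% in the cuprizone bars and 14.1% to 26.2% in the mock bars, and Mpeg1 10.1% to 15.0% and 2.55% to 9.41%.

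The ligands of the receptors and the adaptors of the myeloid receptors gave different values. At 5.5 weeks none of 6 tested was called by edgeR and 2, Csf1 and Tyrobp, had an unadjusted p under 0.05. Csf1 averaged 40.1 ± 2.51 CPM in cuprizone and 29.8 ± 4.64 CPM in mock (SD, n = 3 and 2; edgeR adjusted p = 0.192). Tyrobp averaged 1.29 ± 0.491 CPM in cuprizone and 0.701 ± 0.1105 CPM in mock (edgeR adjusted p = 0.438). Cx3cl1, the neuronal ligand, averaged 1039 ± 94.0 CPM in cuprizone and 885 ± 154 CPM in mock (edgeR adjusted p = 0.583). At 5 weeks the ligands were lower in the cuprizone library: Cx3cl1 was 4.81-fold lower (interval 4.64 to 4.99), Il34 3.96-fold lower and Csf1 1.46-fold lower. Of the adaptors carried by myeloid cells, Tyrobp was 12.6-fold higher there (158 counts in cuprizone, 12 in mock) and Fcer1g 4.85-fold higher. Hcst, another adaptor on this list, had 5 counts in cuprizone and 9 in mock, too few to separate the pair (ratio 0.530, interval 0.139 to 1.76). At 7 weeks Tyrobp was 23.5-fold and Fcer1g 21.4-fold higher, close to the markers, whereas Csf1 was 1.66-fold higher, Il34 was at a ratio of 1.07 and Cx3cl1 was 1.61-fold lower. The 7-week ratios of Cx3cr1 (25.8) and Csf1r (16.9) lay far above those of their ligands.

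Other genes of resting microglia, a list of 20, gave values like those of the 9. At 5 weeks 8 of 14 measured were at least 2-fold higher and 1, Selplg, the P-selectin ligand, was lower, with 5 counts in cuprizone against 79 in mock (median log2 ratio of the list 1.17). C1qc, a chain of complement C1q, had 20.2 CPM in cuprizone and 3.91 CPM in mock. At 5.5 weeks none of 18 tested was called, 7 had an unadjusted p under 0.05, and the median log2 fold change was 0.54. C1qa came nearest, with 4.09 ± 0.377 CPM in cuprizone and 2.06 ± 0.659 CPM in mock (SD; edgeR adjusted p = 0.0872). At 7 weeks 19 of 20 were at least 2-fold higher, with a median log2 ratio of 4.19, and Ctss, the protease cathepsin S, had 282.9 CPM in cuprizone and 12.8 CPM in mock.

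Genes outside the resting set were called at 5.5 weeks where the 9 were not. Of the transcription factors of myeloid cells 1 of 7 tested rose, Irf8, which microglia need to develop, at 3.49 ± 0.213 CPM in cuprizone and 1.72 ± 0.0339 CPM in mock (SD; log2 fold change 1.02 ± 0.22 SE, edgeR adjusted p = 0.0477). Of the disease-associated list 5 of 15 tested rose and none fell. Over all 16086 genes tested, 1.08% rose and 0.392% fell. Lyz2, lysozyme, averaged 4.55 ± 1.50 CPM in cuprizone and 0.625 ± 0.0960 CPM in mock (edgeR adjusted p = 0.00185). Lgals3, galectin-3, averaged 7.90 ± 1.79 CPM in cuprizone and 2.93 ± 0.270 CPM in mock (edgeR adjusted p = 0.0106). The other called genes were Clec7a, Spp1 and Itgax, all under 0.5 CPM in mock, with Itgax at a mean of 0.0186 CPM there. Whether the calls of this paragraph, Irf8 among them, hold in the other fits was not examined. Whether the cuprizone effect on these genes differed from that on the 9 was not tested.

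At 7 weeks the same genes stood far above mock. Lyz2 had 2821 counts in cuprizone and 24 in mock, and Spp1, osteopontin, had 1527 counts in cuprizone and 7 in mock. At 5 weeks both were at 0 in the mock library, with 148 counts of Lyz2 and 212 of Spp1 in cuprizone. Lgals3 had 593 counts in cuprizone and 37 in mock in that pair, and Clec7a 18 in cuprizone and 0 in mock. Itgax had 0 counts in both 5-week libraries. Over the 16 genes of the list the median log2 ratio was 0.85 at 5 weeks, 0.49 at 5.5 weeks and 3.10 at 7 weeks, with 7 of 14 measured at least 2-fold higher at 5 weeks and 10 of 16 at 7 weeks. At 5 weeks 3 of the 14 were at least 2-fold lower.

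Markers of other cells moved with the 7-week values. All 8 endothelial and pericyte markers were at least 2-fold higher in the 7-week cuprizone library, with a median log2 ratio of 5.61 and a sum of 412.7 CPM against 24.9 CPM in mock. In the other 8 libraries that sum was 22.2 to 29.8 CPM. Flt1, a receptor of vascular endothelial growth factor, had 2072 counts in cuprizone and 19 in mock, and Cldn5, the tight junction protein of brain vessels, 1660 in cuprizone and 14 in mock. The 9 markers of border macrophages summed to 23.0 CPM in cuprizone and 1.80 CPM in mock, with 0.791 to 1.94 CPM in the other 8 libraries, and all 5 that reached 1 CPM were at least 2-fold higher. Stab1, a scavenger receptor, had 293 counts in cuprizone and 23 in mock, and Mrc1, the mannose receptor, 95 in cuprizone and 14 in mock.

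Blood cell markers were also higher in the 7-week cuprizone library, at lower levels. The 10 lymphocyte markers summed to 33.4 CPM in cuprizone and 14.3 CPM in mock, with 5.20 to 24.1 CPM in the other 8 libraries, and 3 of 4 that reached 1 CPM were at least 2-fold higher. Cd4, the T helper cell co-receptor, had 448 counts in cuprizone and 66 in mock, and Nkg7, a gene of cytotoxic lymphocytes, 48 in cuprizone and 0 in mock. Cd3e, part of the T cell receptor, had 15 counts in cuprizone and 0 in mock. The 10 markers of monocytes and neutrophils summed to 1.38 CPM in cuprizone and 0.221 CPM in mock, a ratio of 6.26 (interval 2.63 to 18.1), and 4 of the 10 were at 0 in cuprizone. Sums over astrocyte, oligodendrocyte and neuron markers lay closer to mock: the astrocyte sum at 7 weeks was 1.07 times that of mock, the oligodendrocyte sum 0.736 times and the neuron sum 0.666 times. Single genes on these lists differed more. Gad1 and Gad2, the GABA-making enzymes of inhibitory neurons, were 5.53-fold and 5.82-fold higher in cuprizone, and Gfap was 2.83-fold higher, while Snap25, which holds most of the neuron sum, had a ratio of 0.520. The part of endothelial, border macrophage, blood cell and neuronal RNA in the 7-week values of the 9 was not tested. At 5 weeks the endothelial and pericyte markers summed to 25.3 CPM in cuprizone and 22.2 CPM in mock, a ratio of 1.14 (interval 1.007 to 1.297). The pericyte gene Rgs5 held most of that sum, with 507 counts in cuprizone and 381 in mock, whereas Cldn5 had 2 counts in cuprizone and 20 in mock. In the same pair the 9 border macrophage markers summed to 17 counts in cuprizone and 20 in mock. Mrc1, F13a1, Lyve1, Cbr2 and Cd209f had 0 in both libraries. Ms4a7 had 11 counts in cuprizone and 0 in mock, Pf4 0 and 6, Cd163 5 and 13, and Stab1 1 and 1. At 5.5 weeks edgeR called 0 of 6 endothelial and 0 of 2 border macrophage genes tested, and 0 had an unadjusted p under 0.05.

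**Figure D4:**
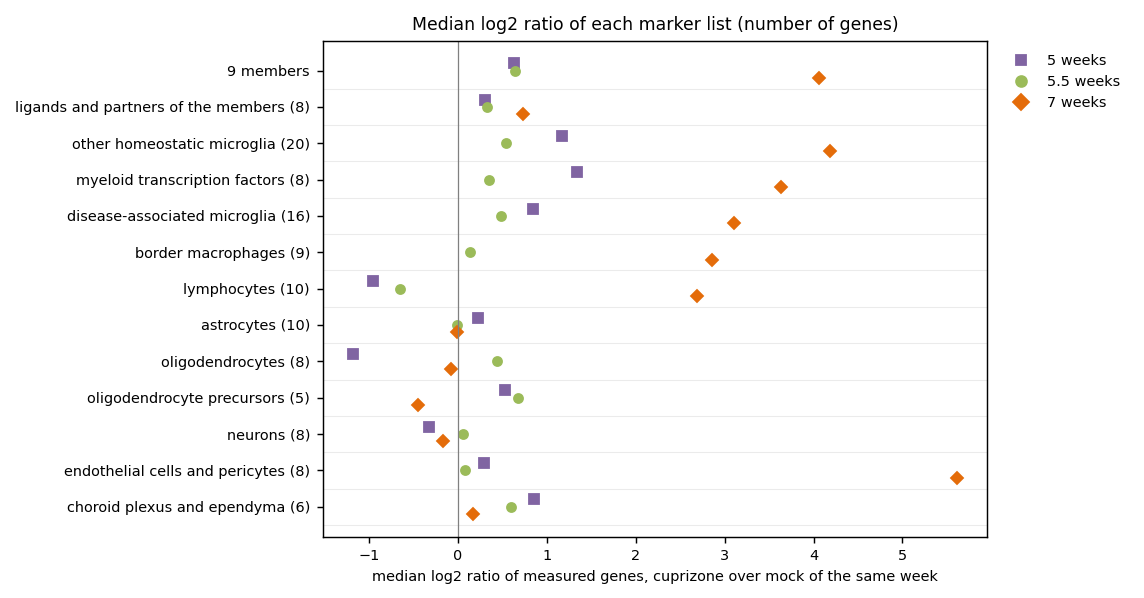
Median log2 ratio of cuprizone over mock (horizontal axis) for the 9 markers and 12 other lists, by week, with the number of genes on each list in brackets and only measured genes entering a median. At 7 weeks the endothelial list (5.61), the other resting microglial genes (4.19) and the 9 markers (4.07) lie far to the right, while astrocytes lie at −0.01; at 5.5 weeks every list lies within 0.7 of 0.

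By level over the 9 distinct libraries, the genes most like the mean profile of the 9 were Fcgr3, a receptor for IgG (root mean square distance 0.0809 on the centred log2 CPM scale), Laptm5, a lysosomal membrane protein (0.195), Ctsh, the protease cathepsin H (0.261), Gm37720 (0.288), Gm43508 (0.290) and Unc93b1, which carries Toll-like receptors to endosomes (0.298). The median distance over 20292 genes was 1.45. Fcgr3 and Laptm5 are on the list of other resting microglial genes, and the likeness is dominated by the 7-week cuprizone library. Of the 9 themselves Cx3cr1 lay nearest to the mean, at rank 3, and Ptprc farthest, at a distance of 1.13 and rank 3466.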

How the data were processed

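Ribosome-bound RNA was measured in 17 corpus callosum libraries. Per the submitters' processing notes, FastQC 0.11.9, STAR 2.5.4b and featureCounts 1.6.0 were used. The builds named are GRCm38/mm10 and GRCm39/mm39, with no role for either, and whether counting used strand is not given in the sources used here, so reads of overlapping genes may be shared between names. The deposited values are raw counts per Ensembl gene in 9 libraries. The deposited whole numbers of the other 8 libraries were treated as a score of unstated origin, because they are near-repeats, and were used only in alternatives. GENCODE M21 symbols named 99.4% of batch 1 and 94% of batch 2 identifiers. Sequences came from RefSeq.

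At 5.5 weeks genes were kept by filterByExpr at a minimum count of 10, TMM-scaled, and tested two-sided with the robust quasi-likelihood test of edgeR 4.0.16 (R 4.3.3). P-values were adjusted by Benjamini-Hochberg over every gene tested, with a threshold of 0.05. The fit had 3 residual and a median of 8.64 prior degrees of freedom. The labels call the libraries biological replicates. The p-values rest on the spread between these libraries, combined through the prior with the variance of other genes, and cover no other source of variation. At 5 and 7 weeks genes with at least 1 CPM in either library were compared by ratio, with a prior count of 2 for medians and for counts of 2-fold genes. Exact Clopper-Pearson 95% intervals and the floor of 3 counts cover counting error only. Against library totals, TMM moved the log2 ratios by −0.10 at 5 weeks and by −0.32 at 7 weeks. Differences between weeks used the treatment by week term over 9 libraries.

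The members and lists were chosen with earlier results of these data known. All members are named in every library. From other lists, up to 4 genes were to be named by lowest p at 5.5 weeks or by abundance. Selplg, Itgax, Cd3e, Cd4, Nkg7, Gad1, Gad2, Ms4a7, Pf4, Cd163 and genes listed at 0 were added after their values were seen. The 6 likest genes had the lowest root mean square distance from the members' mean profile. DESeq2 1.42.0, limma 3.58.1 (voom), other filters, library sets, a replicate block and leaving out each library were tried.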

Additional observations from a re-analysis of the deposited data

Results flagged for a closer look

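The cuprizone effect differed between weeks for all 9 markers by the treatment by week term of the 9-library fit (edgeR, adjusted over 20292 genes). The 7-week values rest on 1 cuprizone and 1 mock library, and week 5 is also batch 1. Over 5.5 weeks, the 7-week effect was larger on the log2 scale by 3.91 for Cx3cr1, 3.90 for P2ry12 and 3.37 for Csf1r. The same difference was 3.88 for Tmem119, 4.69 for Siglech and 3.46 for Fcrls, and it was 4.07 for Ptprc, 2.79 for Aif1 and 4.02 for Mpeg1. Over 5 weeks, the 7-week effect was larger by 3.42 for Cx3cr1, 4.72 for P2ry12, 4.03 for Csf1r, 3.46 for Tmem119, 3.88 for Siglech, 4.04 for Fcrls, 1.97 for Aif1 and 1.91 for Mpeg1. Over 5.5 weeks, the 5-week effect was larger by 2.11 for Mpeg1, and for Ptprc the edgeR adjusted p was 0.00103, with no fold given because the 5-week mock library is at 0.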

How the results depend on the processing

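Genes called at 5.5 weeks numbered 236. They were 543 without the filter on low counts, 136 with at least 1 CPM in all 5 libraries, 398 with the 6 and 789 with the 17 libraries as deposited, and 65 (without mock 3) to 274 (without cuprizone 2) when 1 library was left out. Leaving out mock 1 gave 88 and leaving out cuprizone 1 gave 130. With replicate number as a block they were 750, with 0 markers called. The numbers are not shown to pair the samples: only numbers 1 and 3 are shared, with correlations of 0.04 and −0.08. Markers called were 2 without the filter (Ptprc and Mpeg1), 1 in the 9-library fit (Ptprc), 1 with 6 libraries (Csf1r), 3 with 17 (Cx3cr1, Csf1r and Mpeg1) and 0 in every fit that left out 1 library. The adjusted p of Ptprc ran from 0.0410 to 0.455 over these alternatives and that of Mpeg1 from 0.00136 to 0.378.

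The 5-week log2 ratio of the summed markers was 0.76. It was 0.53 with the near-repeat mock 1, 1.06 without P2ry12, 0.58 without Mpeg1, −0.30 relative to the summed astrocyte markers and 0.58 relative to those other than Gfap. The 7-week ratio was 4.19. It was 4.51 with library totals, 4.07 with means as deposited, 4.02 with the near-repeat mock 2, 4.05 with the near-repeat cuprizone 1, 4.07 without Cx3cr1 and 4.41 relative to astrocyte markers other than Gfap. The 9 markers that differed between weeks were 2 without the 7-week libraries, an alternative chosen after seeing the data, as were those relative to astrocyte markers.

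Signs turned for markers that were not called. P2ry12 at 5.5 weeks ran from −0.19 to 0.18 when 1 library was left out, and was 0.0058 with DESeq2, 0.0026 in the 9-library fit, 0.0577 with 6 libraries, 0.0757 with 17 and 0.0227 without the 7-week libraries. Siglech ran from −0.97 to 0.0931 and Aif1 from −0.10 to 0.42 when 1 library was left out. With 17 libraries Siglech was at −0.37 for 5 minus 5.5 weeks and Ptprc at 2.26 for 7 minus 5 weeks. Of the other values of single markers, 332 kept their sign and side of the threshold, 10 gained a call and 4 lost one. The cause was not tested. Depth limits Siglech and Ptprc, with 0 to 31 counts in the distinct libraries other than cuprizone at 5 and 7 weeks.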
